A study of Mus musculus with 5 samples.

Results

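Thyroglobulin and parathyroid hormone, secretory products of the thyroid follicle and of the parathyroid gland, gave bright signals on every array of a series whose RNA is labelled as mouse lung. The genes described are Tg, Pth, Pax8, Dio1 and Tshr, 5 of the 8251 genes named on the array. Each is represented by 1 probe set of the 12422 used, a probe set being a group of short oligonucleotides made for one transcript. Probe sets were taken where the platform annotation gives exactly 1 gene symbol and that symbol is one of the 5. The genes themselves were chosen by the intensities already seen on these arrays, so their levels are given as a description, with no test.

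The study put a solution into the trachea of A/J mice and hybridised total RNA to Affymetrix mouse expression arrays. The solution held IL-13 (interleukin-13, a T helper cell cytokine that acts on airway epithelium) for 3 arrays, and was saline alone for 2 arrays. The titles carry the numbers 6, 18 and 48 for IL-13 and 6 and 48 for saline, with no unit in the labels, and an array is named here by its treatment and that number. Each combination holds 1 array, the labels give neither the age of the mice nor the number of animals behind an array, and nothing says that the arrays come from separate animals. The sources used here do not describe how the tissue was dissected.

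The thyroid follicle builds thyroid hormone on thyroglobulin, a very large protein stored in the follicle lumen. Thyrotropin from the pituitary acts through its receptor on the follicle cell, and the transcription factor Pax8 drives thyroid genes together with Nkx2-1, which lung epithelium also makes. Deiodinases convert the hormone to its active or inactive forms. The parathyroid glands lie on or in the thyroid beside the trachea, and their hormone raises blood calcium.

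The 250 bases before the annotated start are shown for the 3 of the 5 genes matched in the RefSeq promoter table (build GRCm38.p6), so that Pth, the steadiest of the 5 genes, can be set beside Pax8 and Dio1, which varied more. All 3 lie on the minus strand and are written from 5′ to 3′, ending at the base before the start. Pth is at chr7:113388574-113388823, Pax8 at chr2:24475600-24475849 and Dio1 at chr4:107307169-107307418. Capitals mark matches to the motifs TATAAA (the TATA box), CCAAT (the CCAAT box), CTCAAG (a core recognised by Nkx2-1) and AGGTCA (the nuclear receptor half-site), searched on both strands.
Pth: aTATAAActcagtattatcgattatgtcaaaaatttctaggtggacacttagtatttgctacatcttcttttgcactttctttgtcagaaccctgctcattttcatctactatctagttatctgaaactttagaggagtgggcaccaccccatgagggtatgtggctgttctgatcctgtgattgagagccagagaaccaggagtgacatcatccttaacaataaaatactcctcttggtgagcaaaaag
Pax8: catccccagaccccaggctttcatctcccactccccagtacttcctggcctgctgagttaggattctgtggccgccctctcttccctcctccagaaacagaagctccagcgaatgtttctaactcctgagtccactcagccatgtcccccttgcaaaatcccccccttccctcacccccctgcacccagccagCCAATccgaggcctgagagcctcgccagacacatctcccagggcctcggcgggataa
Dio1: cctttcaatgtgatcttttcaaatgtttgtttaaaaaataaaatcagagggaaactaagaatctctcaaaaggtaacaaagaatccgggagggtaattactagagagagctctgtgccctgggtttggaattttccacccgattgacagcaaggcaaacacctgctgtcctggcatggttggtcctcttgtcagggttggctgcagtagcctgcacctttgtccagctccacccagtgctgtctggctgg
The Pth window held TATAAA once, starting 249 bases before the annotated start, and the Pax8 window held CCAAT once, starting 57 bases before it. The Dio1 window held none of the 4 motifs. Of 32851 such windows in the table, 12.4% held TATAAA, 33.8% CCAAT, 13.3% CTCAAG and 14.0% AGGTCA. The G and C content was 39.2% for Pth, 60.4% for Pax8 and 46.8% for Dio1. A match is a run of letters and was not tested as a site. No link between these sequences and the spread of the genes over the arrays was tested.

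Tg, the storage protein and hormone precursor (probe set 94154_at), read 25516, 18348 and 15057 on IL-13 6, IL-13 18 and IL-13 48. On saline 6 and saline 48 it read 23536 and 13170. Both arrays numbered 6 were the highest, saline 48 was the lowest, and the treatments overlapped. Tg lay above at least 99.34% of the probe set values on each array, and at most it reached 80.8% of the highest value of its array. Whether so bright a probe set still responds in proportion was not tested.

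Pth, the parathyroid hormone precursor (102078_at), read 11132, 10091 and 11669 on IL-13 6, IL-13 18 and IL-13 48, and 8659 and 13790 on saline 6 and saline 48. It was the steadiest of the 5 genes, with a span of 1.59-fold between saline 48 and saline 6, which were the highest and the lowest array. The IL-13 arrays all lay between them.

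Pax8, the paired box factor of the thyroid follicle and of kidney tubules (96504_at), read 1264, 753 and 907 on IL-13 6, IL-13 18 and IL-13 48. It read 608 on saline 6 and 1494 on saline 48. The span was 2.46-fold, again with the saline arrays at both ends.

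Dio1, the deiodinase that activates thyroid hormone in thyroid, liver and kidney (95552_at), read 734, 881 and 1411 on IL-13 6, IL-13 18 and IL-13 48. It read 365 on saline 6 and 1858 on saline 48. The span was 5.08-fold, and in both treatments the array numbered 48 was the highest.

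Tshr, the thyrotropin receptor (98328_at), read 70.0, 287 and 379 on IL-13 6, IL-13 18 and IL-13 48, and 41.1 and 344 on saline 6 and saline 48. Saline 6 lay below the floor of 55.3, the pooled 20th percentile to which lower values were set, so the span of 6.85-fold is a lower bound. Only 3 of the 5 arrays were above 210, the pooled 40th percentile used as the limit for dim probe sets. Probe sets bind their targets with different strength, so none of these levels is set against that of another gene.

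**Figure D1:**
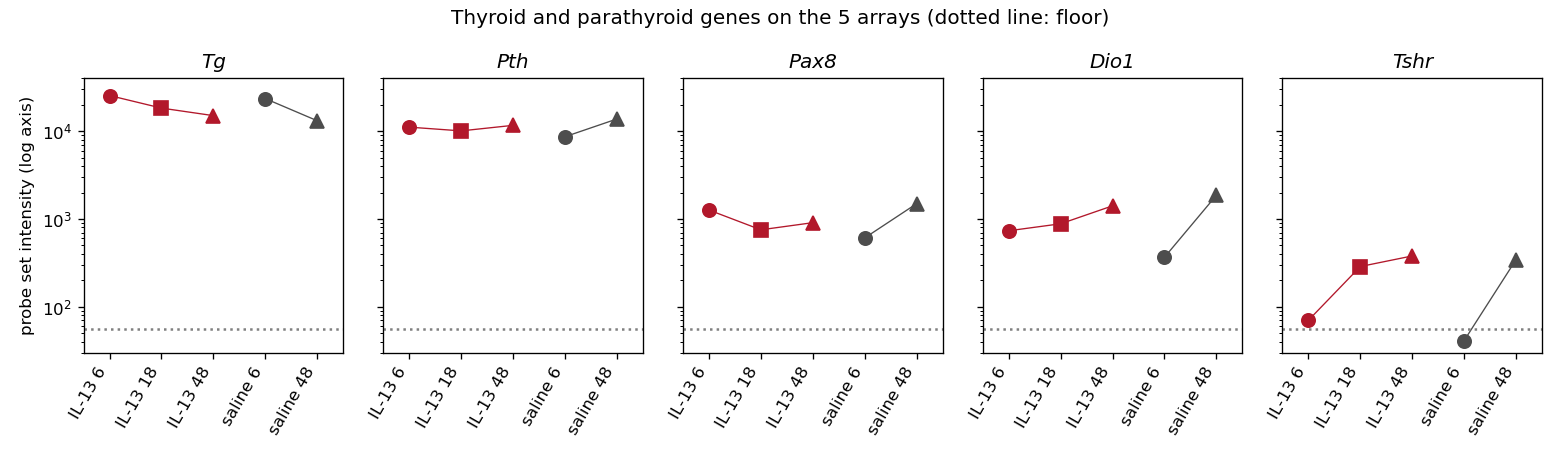
Probe set intensity (log axis) of the 5 genes on each array, IL-13 arrays in red and saline arrays in grey, 1 point per array, with lines joining arrays of one treatment and a dotted line at the floor of 55.3. Tg is lower at 48 than at 6 in both treatments, and Dio1 and Tshr are higher. Pth is nearly level across the IL-13 arrays and 1.59-fold higher on saline 48 than on saline 6.

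All 5 probe sets passed the filter on dim signals, with 7811 of the 12422. The IL-13 arrays did not separate from the saline arrays for any of the 5 genes, 0 of 5, while all IL-13 arrays lay above or below both saline arrays for 25.7% of the probe sets tested. The log2 difference of IL-13 less saline, with its standard error from limma (a linear model with a shared estimate of spread), was 0.12 (SE 0.33) for Tg and 0.00 (SE 0.24) for Pth. For Pax8 it was 0.00 (SE 0.41), for Dio1 0.23 (SE 0.66) and for Tshr 0.51 (SE 0.96). Every one of these differences is smaller than its own error, which for Dio1 and Tshr leaves room for several-fold changes in either direction. The sign of each turned when 1 array was left out. Without saline 6 the difference was -0.94 for Dio1, -0.81 for Tshr, -0.65 for Pax8 and -0.33 for Pth, and without saline 48 it was 1.41, 1.83, 0.65 and 0.34 in the same order. For Tg it was 0.54 without saline 6 and -0.30 without saline 48.

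Set against the saline array with the same title number, Pax8 and Dio1 were higher on IL-13 6 than on saline 6. The ratio was 2.08 for Pax8 and 2.01 for Dio1, and 3.5% of the probe sets bright enough to be counted were at least 2-fold higher in that pair. The other 3 genes were closer, at 1.08-fold for Tg, 1.28-fold for Pth and at least 1.27-fold for Tshr. None of the 5 was 2-fold lower at 6, where 4.06% of the probe sets were. Dio1 stands at the limit, and with quantile normalization its log2 difference was 0.95, below 2-fold.

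At title number 48 none of the 5 genes differed 2-fold between IL-13 and saline, and the share of probe sets past that fold was 1.13% for higher and 2.08% for lower. Pax8 on IL-13 48 stood at 0.607 of its level on saline 48, Dio1 at 0.76, Pth at 0.846, Tshr at 1.1 and Tg at 1.14. Pax8, Dio1 and Pth were therefore higher with IL-13 at 6 and lower at 48, a pair of arrays each time and with no test. The share of all probe sets that turned in this way was not counted. Taking the other saline array as the control turned the sign of the difference for Pax8, Dio1 and Pth at both title numbers, for Tshr at 6 and for Tg at 48. For Dio1 it became -1.34 at 6 and 1.95 at 48 on the log2 scale.

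The arrays numbered 48 and 6 were also compared within each treatment. Tshr was 5.41-fold higher on IL-13 48 than on IL-13 6, and at least 6.22-fold higher on saline 48 than on saline 6. Dio1 was 1.92-fold higher at 48 with IL-13 and 5.08-fold higher at 48 with saline. Pax8 did not keep one direction, at 0.717 of the level at 6 with IL-13 and 2.46-fold higher with saline. Pth was 1.05-fold and 1.59-fold higher at 48 with IL-13 and with saline.

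Within IL-13, 1 of the 5 genes (Tshr) was at least 2-fold higher at 48 and none was 2-fold lower, against 1.43% and 2.0% of the probe sets. Within saline, 3 of the 5 (Pax8, Dio1 and Tshr) were at least 2-fold higher and none was 2-fold lower, against 3.1% and 3.13%. The 4 arrays of these comparisons are distinct. At least 1.5-fold in the same direction in both treatments, a limit chosen after the values were seen, held for Dio1 and Tshr as higher and for Tg as lower. Of all probe sets bright enough in both treatments, 1.64% were higher and 1.32% lower by that rule. The intermediate array, IL-13 18, stood at 4.1-fold the level of IL-13 6 for Tshr and at 1.2-fold for Dio1. Both Tshr arrays at 48 lay close to the limit of brightness (343, the pooled median), and with the floor raised to the 40th percentile its log2 difference was 0.85 with IL-13 and 0.71 with saline, against 2.44 and 2.64.

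Tg went the other way. It was lower at 48 than at 6 by 1.70-fold with IL-13 and by 1.79-fold with saline, a log2 difference of -0.76 and -0.84. Probe sets about as bright as Tg were mostly lower at 48. Over the 96 probe sets within 0.5 log2 units of the mean level of Tg, the median log2 difference of 48 less 6 was -0.29 with IL-13 (10th to 90th percentile -0.67 to 0.06) and -0.24 with saline (-0.68 to 0.12). Less bright probe sets were not lower. Over the 1913 within 0.5 log2 units of the mean level of Pax8, the median was 0.03 with IL-13 and 0.07 with saline. With quantile normalization, which gives all arrays the same distribution, the difference of Tg was -0.37 with IL-13 and -0.52 with saline.

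**Figure D2:**
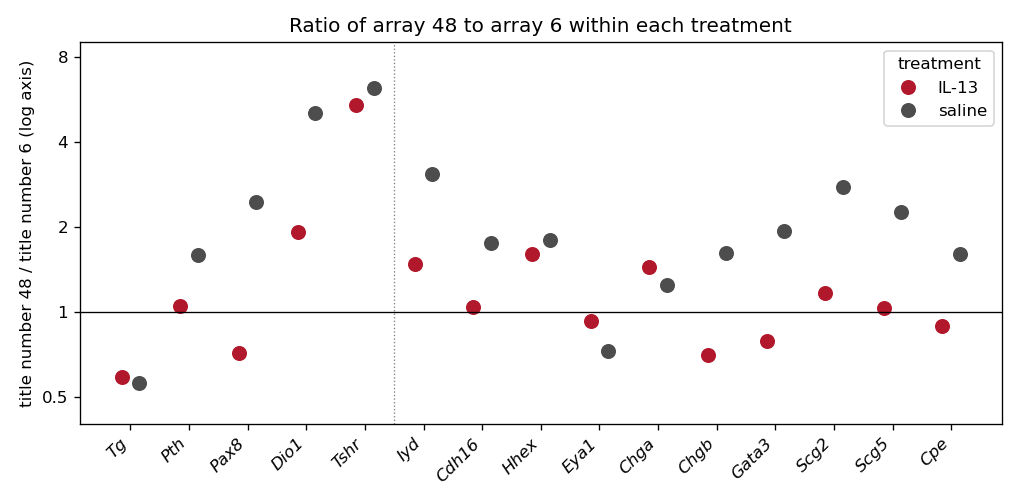
Ratio of the array numbered 48 to the array numbered 6 (log axis) within IL-13 (red) and within saline (grey), 1 point per pair of arrays, for the 5 genes left of the dotted line and for thyroid, parathyroid and endocrine genes right of it. Tg lies below 1 in both treatments, as does Eya1, and Dio1, Tshr, Iyd and Hhex lie well above 1 in both.

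The 5 genes did not follow one pattern over the arrays. After each profile was centred on its own mean, the root mean square difference between 2 profiles was smallest for Pth and Pax8 (0.29 log2 units) and largest for Tg and Tshr (1.54). Tg was 1.14 from Dio1, and Dio1 was 0.58 from Pax8, 0.61 from Pth and 0.63 from Tshr.

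The same measure was used over the 5 arrays to name the genes closest to Dio1 and Tshr, the members that spanned at least 4-fold, among 6310 named probe sets. Closest to Dio1 were Mgst2, a microsomal glutathione transferase (0.14), Slc4a5, a bicarbonate cotransporter (0.19), and Asgr1, a subunit of the asialoglycoprotein receptor (0.20). Mgst2 read 872, 879 and 1439 on IL-13 6, IL-13 18 and IL-13 48, and 401 and 1653 on saline 6 and saline 48, so it too was lowest on saline 6 and highest on saline 48. Next came the gap junction gene Gjb1 (0.26), Iyd (0.26), the cartilage proteoglycan gene Acan (0.26), the transcription factor gene Sim2 (0.27) and the small GTPase gene Arf6 (0.28). Iyd encodes the deiodinase that recovers iodide from iodotyrosines in the thyroid follicle. It read 2443, 2548 and 3602 on IL-13 6, IL-13 18 and IL-13 48, and 1297 and 3998 on saline 6 and saline 48.

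No gene lay as close to Tshr, whose nearest was Rnf220, a ubiquitin ligase gene, at 0.41 on a probe set with the ending _r (161937_r_at). Rnf220 read 55.3, 237 and 497 on IL-13 6, IL-13 18 and IL-13 48, and 46.2 and 191 on saline 6 and saline 48. On saline 6 both Rnf220 and Tshr lay below the floor and were set to it, so part of their likeness comes from the floor. Rnf220 was followed by the clock transcription factor gene Arntl (0.43), the acetylcholinesterase anchor gene Colq (0.46), Rundc3a (0.55) and the sulfotransferase gene Sult1d1 (0.56). Arntl read 219, 855 and 807 on IL-13 6, IL-13 18 and IL-13 48, and 279 and 828 on saline 6 and saline 48. Both arrays numbered 6 were its lowest, as they were for Tshr. Slc4a5 (0.57), Asgr1 (0.58) and Gjb1 (0.59), already close to Dio1, completed the 8.

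**Figure D3:**
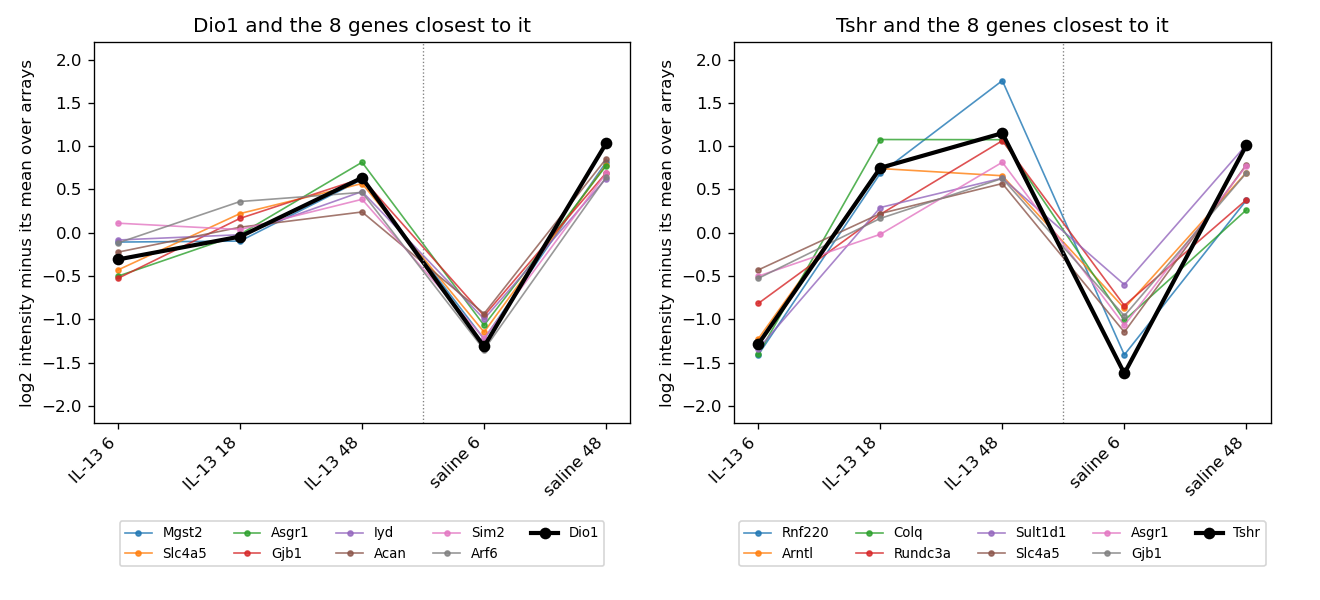
Log2 intensity minus its mean over the 5 arrays for Dio1 (left, black) and Tshr (right, black) and for the 8 genes closest to each (coloured), with IL-13 arrays left of the dotted line and saline arrays right of it. The genes near Dio1 are lowest on saline 6 and highest on saline 48 or IL-13 48, and Tshr is lowest on both arrays numbered 6.

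Related genes were taken from 7 lists of thyroid, parathyroid and hormone genes, 104 genes in all, of which 68 had a probe set with a single symbol and 42 passed the filter. None of the 42 rose or fell with IL-13 in limma after Benjamini-Hochberg adjustment over all probe sets tested (lowest adjusted p = 0.451). Over all probe sets tested 0.0512% were called. At an unadjusted p under 0.05 there were 2 higher and 0 lower among the 42, and 412 higher and 311 lower among all 7811. The mean was higher with IL-13 for 23 of the 42 and lower for 19, beside 4316 higher and 3495 lower among all 7811, with a median log2 difference of 0.09 against 0.04 over all probe sets tested.

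Of the genes of thyroid hormone synthesis, 12 of 24 had a probe set and 11 were tested, 6 with a higher mean and 5 with a lower one. Iyd had a log2 difference of 0.31 (SE 0.47). Cdh16, a kidney and thyroid cadherin, read 1467, 1083 and 1521 on IL-13 6, IL-13 18 and IL-13 48, and 867 and 1525 on saline 6 and saline 48. Its difference was 0.22 (SE 0.29), and it was chosen after its values were seen. Lrp2, an endocytic receptor that binds thyroglobulin, differed by 0.51 (SE 0.29). The lysosomal proteases that digest thyroglobulin, which most cells also make, differed by -0.46 (Ctsl, SE 0.28), -0.39 (Ctsb, SE 0.19) and 0.37 (Ctsk, SE 0.17), with further Ctsb probe sets at -0.42 and 0.01.

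Among thyroid transcription factors, 5 of 9 had a probe set and 2 were tested. Hhex, a homeobox factor of the thyroid, liver and blood, read 290, 324 and 466 on IL-13 6, IL-13 18 and IL-13 48, and 217 and 392 on saline 6 and saline 48. It was higher at 48 than at 6 by 1.61-fold with IL-13 and 1.8-fold with saline, and its difference by treatment was 0.27 (SE 0.32). Eya1, a coactivator of pharyngeal development, differed by 0.20 (SE 0.20).

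Of the parathyroid and C cell genes, 8 of 15 had a probe set and 6 were tested, 4 with a higher mean and 2 with a lower one. Chga, the granule protein chromogranin A of parathyroid, C cells and other endocrine cells, read 4897, 6404 and 7035 on IL-13 6, IL-13 18 and IL-13 48, and 4105 and 5116 on saline 6 and saline 48. Its difference was 0.40 (SE 0.22), and a second probe set gave 0.09 (SE 0.18). Gata3, a transcription factor of the parathyroid and of T cells, differed by -0.60 (SE 0.34), the granule chaperone Scg5 by 0.23 (SE 0.34) and the prohormone carboxypeptidase Cpe by 0.19 (SE 0.24). Gata3 at 48 stood at 0.788 of its level at 6 with IL-13 and at 1.94 times that level with saline. The ratio of 48 to 6 was 1.03 with IL-13 and 2.26 with saline for Scg5, and 1.16 and 2.76 for Scg2, another granule protein chosen after its values were seen.

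The thyrotropin axis had 10 of 11 genes with a probe set and 6 tested, 2 with a higher mean and 4 with a lower one. Gnas, a widely made G protein subunit that couples Tshr to adenylate cyclase, read 20610, 15309 and 13862 on IL-13 6, IL-13 18 and IL-13 48, and 23659 and 13908 on saline 6 and saline 48. Like Tg it is a bright probe set that was lower at 48 than at 6 in both treatments. Its difference by treatment was -0.15 (SE 0.29). The adenylate cyclase genes Adcy9 and Adcy6 differed by -0.32 (SE 0.18) and -0.16 (SE 0.19), and the inhibitory G protein gene Gnai2 by -0.32 (SE 0.18), with a second probe set of Adcy9 at 0.00 and further ones of Gnai2 at -0.45 and 0.09. Tshb, the pituitary beta chain of thyrotropin, read 16.5 to 71.1 with IL-13 and 16.9 to 29.1 with saline, and did not pass the filter.

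Of the genes of thyroid hormone metabolism, transport and action, 17 of 21 had a probe set and 11 were tested, 7 with a higher mean and 4 with a lower one. The hormone-responsive corepressor gene Hr differed by 0.50 (SE 0.18, limma adjusted p = 0.504). The activating deiodinase gene Dio2 differed by -0.31 (SE 0.27), the lipogenic target Thrsp by -0.29 (SE 0.37) and the retinoid X receptor gene Rxra by -0.24 (SE 0.24), although a second probe set of Rxra gave 0.52. The 2 tested genes of PTH signalling and calcium, of 14 listed, were the vitamin D hydroxylase gene Cyp27b1 at 0.91 (SE 0.65) and Kl at -0.01 (SE 0.34). Cyp27b1 passed the filter only through IL-13 6 and IL-13 18 (229 and 240), so its difference is a description. It read 58.1 on IL-13 48, and 57.8 and 106 on saline 6 and saline 48. The PTH receptor gene Pth1r read 121 to 171 with IL-13 and 131 to 192 with saline, below the filter. Among relatives of Pax8 and Tshr, 4 of 10 were tested, and the follicle-stimulating hormone receptor gene Fshr differed by 0.61 (SE 0.19, limma adjusted p = 0.451), Pax4 by -0.23 (SE 0.40), Pax5 by -0.07 (SE 0.51) and Pax1 by -0.01 (SE 0.58).

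The name given to the genes was set beside cell type markers. Of 9 thyroid follicle markers, 5 had a probe set with a single symbol, but Tg, Tshr and Pax8 among them were chosen by their intensity and check nothing. Of the remaining follicle markers, Iyd was above the pooled median on all 5 arrays, and Hhex only on IL-13 48 and saline 48. Of 5 parathyroid markers 3 had a probe set, Pth, itself chosen, Chga, which was above that median on all 5 arrays, and Gata3, which was above it on saline 48 alone. Chga was also the only one of 3 C cell markers with a probe set. The sums over these lists are mostly Tg and Pth and are given as a description. The summed intensity of the follicle markers was 29588, 22250 and 20405 on IL-13 6, IL-13 18 and IL-13 48, and 25721 and 19394 on saline 6 and saline 48. That of the parathyroid markers was 16246, 16764 and 18868 with IL-13 and 13010 and 19358 with saline, in the same order. Pax8 and Dio1 are also made in kidney, and Dio1 in liver. Of the 8 kidney markers with a probe set 1 passed the filter, the urate transporter gene Slc22a12, which read 276 to 490 with IL-13 and 267 and 383 with saline. The defining kidney gene Umod read at most 18.8 with IL-13 and 21.1 with saline. Of the 9 liver markers none passed, and Alb read 43.4 to 181 with IL-13 and 17.1 to 39.8 with saline. Asgr1, a hepatocyte receptor gene outside that list and close to Dio1 in its pattern, read 708 to 1764 with IL-13 and 478 and 1715 with saline. The part of kidney or liver RNA in Pax8 and Dio1 was not tested.

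The labelled tissue was checked in the same way. Scgb1a1, the secretory protein of club cells, read 22692 to 31024 with IL-13 and 22024 and 29143 with saline. Sftpc, the surfactant protein of alveolar type II cells, read 257, 17178 and 300 on IL-13 6, IL-13 18 and IL-13 48, and 2615 and 194 on saline 6 and saline 48. It was highest on IL-13 18, next on saline 6 and lowest on saline 48. Of the 7 lung epithelium markers with a probe set, 6 passed the filter. Sftpb read 86.3, 2114 and 67.6 on IL-13 6, IL-13 18 and IL-13 48, and 232 and 92.4 on saline 6 and saline 48. Slc34a2 read 224, 2730 and 113 with IL-13, and 252 and 148 with saline, in the same order. Both were above the pooled median on IL-13 18 alone. Sftpd, at 175 to 217 with IL-13 and 121 and 133 with saline, did not pass. Ager, of alveolar type I cells, read 2019 to 4928 with IL-13 and 1872 and 2128 with saline, and Hopx, of the same cells, 842 to 1606 with IL-13 and 484 and 568 with saline, so both were above the pooled median on all 5 arrays. Acta1 of skeletal muscle (11569 to 26556 with IL-13, 13540 and 21715 with saline) and Krt4 of oral and oesophageal epithelium (15406 to 20694 and 15197 to 16287) were also bright on all arrays. Of those 2 lists 11 of 12 and 8 of 10 genes passed the filter. Myh2 of muscle did not, nor did Krt5 (at most 98.1 with IL-13 and 103 with saline) and Krt14 (at most 108 and 72.7). A second Krt4 probe set read 133 on saline 48. In bulk RNA, fewer cells of a type and less RNA per cell cannot be told apart.

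The array saline 6, lowest for Pth, Pax8, Dio1 and Tshr, was also the highest or lowest array for some marker lists of other tissues, but not for all. The summed salivary gland markers (8 of 12 with a probe set) came to 664 to 929 with IL-13, and to 101341 on saline 6 and 685.6 on saline 48. The fat markers (8 of 10) summed to 19744 to 20379 with IL-13, and to 43933 on saline 6 and 22685 on saline 48. For heart markers (10 of 10) the sum was 12788 to 24785 with IL-13, and 34591 on saline 6 and 11908 on saline 48. Airway cartilage markers (10 of 12) were lowest on saline 6, with 5472 to 6964 with IL-13, and 4080 on saline 6 and 8277 on saline 48. Thymus markers (8 of 10) came to 2515 to 7073 with IL-13, and to 9481 on saline 6 and 15657 on saline 48. The summed cartilage markers and Dio1 put the 5 arrays in the same order, with saline 6 lowest and saline 48 highest. The summed parathyroid markers and Iyd gave that order too, but neither is a separate check. That sum is mostly Pth, a chosen gene, and Iyd is itself one of the 8 genes closest to Dio1. Pth, Chga and Gata3 taken singly did not give the order. Acan, one of the 8 genes closest to Dio1, is part of the cartilage sum. In the cartilage list only Acan, Chad and Col11a1 put all 5 arrays in that order. Matn1, Matn3, Col11a2, Col2a1, Hapln1, Col9a1 and Col9a2 did not. The part of these other tissues in the levels of the 5 genes was not tested.

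**Figure D4:**
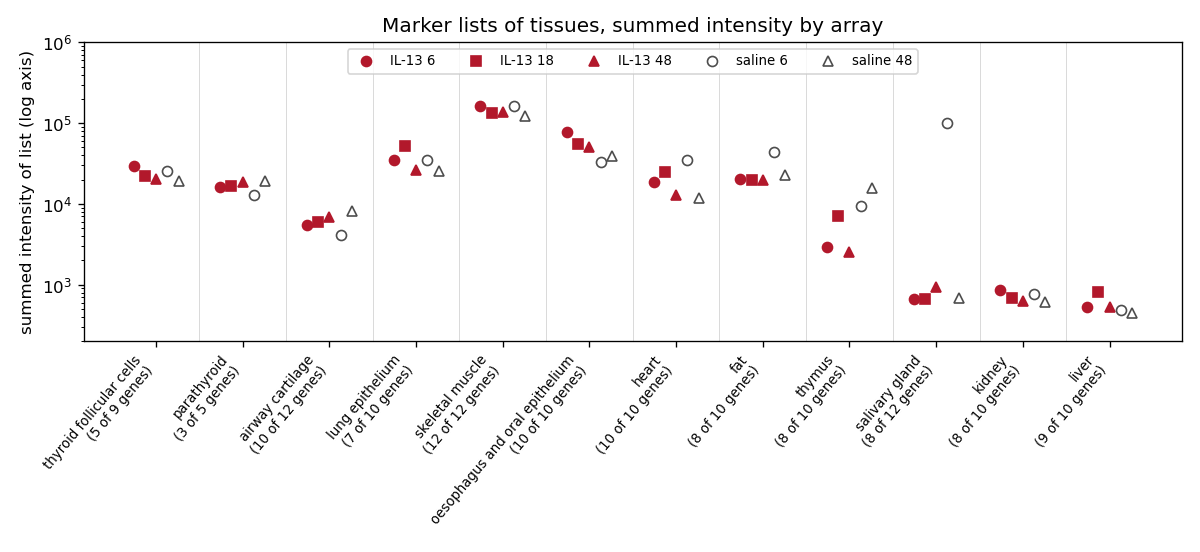
Summed intensity (log axis) of marker lists of 12 tissues on each array, IL-13 arrays filled and saline arrays open, using the brightest probe set of each gene, with the number of genes that had a probe set under each name. The thyroid and parathyroid sums are mostly Tg and Pth, which were chosen by their intensity, and the salivary gland sum is far higher on saline 6 than on the other 4 arrays. Sums of different lists are not set against each other.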

How the data were processed

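Intensities of 12488 probe sets on 5 arrays were read, on a linear scale, from the table the authors deposited, with software and background correction not given in the sources used here. On every array the deposited intensities had a 2% trimmed mean between 800.39 and 800.47. Control probe sets (66) were left out. Of 12422 probe sets, 10833 had exactly 1 symbol, 396 several and 1193 none, and 10817 symbols were updated through RefSeq gene numbers. No 2 arrays held identical values, and Pearson's r between arrays lay between 0.913 and 0.956 over the tested probe sets, a correlation across genes and not across replicates.

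Each array was brought to the same trimmed mean, set to a floor at the pooled 20th percentile (55.3) and log2-transformed. Those exceeding the pooled 40th percentile (210) on 2 arrays or more, 7811 probe sets, entered lmFit and eBayes of limma 3.58.1 (R 4.3.3), two-sided, with treatment as the only term (3 residual and 3.46 prior degrees of freedom), Benjamini-Hochberg adjustment and a threshold of 0.05. The script was tested on simulated data. SE is the moderated standard error. Nothing says that arrays came from separate animals, so a p-value reflects array-to-array spread alone, and that may be technical. A pair of single arrays has no test. Probe sets were counted as 2-fold apart where the higher value exceeded the pooled median (343), and a ratio to a value under the floor is a lower bound. A gene with several probe sets is represented by the one with the highest mean in the lists, and by the brightest in the sums.

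The members and lists were chosen with earlier results of these data known. Every member probe set is named. Of each list of related genes, those past the test and up to 4 with the largest difference are named, and for a member that spans at least 4-fold, the 8 genes with the smallest root mean square difference of centred log2 values. Precision is limited by the number of arrays. Plots used matplotlib 3.10.9.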

Additional observations from a re-analysis of the deposited data

Results flagged for a closer look

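In 3 of the 5 genes the difference between IL-13 and saline pointed in opposite directions at the 2 title numbers, on 1 array of each kind. The difference between the title numbers was not tested. How many of all probe sets turned in this way was not counted, so whether 3 of 5 is unusual is not known. The log2 difference at 6 less that at 48 was 1.775 for Pax8 (1.06 at 6 and -0.72 at 48). It was 1.40 for Dio1 (1.00 and -0.40) and 0.60 for Pth (0.36 and -0.24). For all 3 genes the saline arrays were the lowest (6) and the highest (48) of the 5, with the IL-13 arrays between them. That order by itself gives the opposite directions.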

How the results depend on the processing

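The calls of the comparison of IL-13 with saline, 4 probe sets of which none belongs to the genes described, were not stable. No call was made without a filter, with a filter asking for 1 array, with a floor set at either the 10th or the 40th percentile, with trend and robust settings or with title number as a replicate block (0 each), and 1 with the filter at the 60th percentile. Leaving out 1 array gave 0 to 13: 0 without IL-13 6, IL-13 18 or IL-13 48, 1 without saline 6 and 13 without saline 48. None of the 42 related genes tested was called under any alternative. The count of probe sets at least 2-fold apart at title number 6 (495) was 1412 at 1.5-fold, 169 at 3-fold and 276 with the other saline array as control. At 48 it was 210, and 708 at 1.5-fold, 75 at 3-fold, 339 with the brightness limit at the 40th percentile and 563 with the other saline array. The title numbers are not stated to pair arrays. With the block, the log2 difference of IL-13 less saline was 0.15 for Tg, 0.06 for Pth, 0.17 for Pax8, 0.30 for Dio1 and 0.24 for Tshr. Of 55 alternative values of that difference over the 5 genes, 13 had the opposite sign. All 55 lay within 1 SD of the spread between arrays, but that SD comes from the same few arrays. Leaving out 1 of 2 saline arrays could hardly move a value beyond it, so the count does not show stability. Leaving out 1 array moved Dio1 between -0.94 and 1.41 and Tshr between -0.81 and 1.83. Of 40 alternative values of the ratio between title numbers, chosen after seeing the data, none had the opposite sign and 1 moved by more than that SD, Tshr within saline under the 40th percentile floor (0.71). Because that SD includes the gap between the same arrays, only a large loss counts as a move, and the count does not show stability. Tshr within IL-13 fell from 2.44 to 0.85 under that floor and was not counted. The cause was not tested. Values near the floor, as for Tshr at 6, have no order below it.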
